A study of Mus musculus with 6 samples.

Results

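The voltage-gated sodium channel genes were examined at postnatal day 6 (P6) in the retinas of control mice and in those of mice whose Lhx4, a LIM-homeodomain transcription factor gene of bipolar cells, had been inactivated. Of 8 gene names searched, 7 had a row among the 21995 rows of the deposited table. These were the pore-forming subunit genes Scn1a, Scn2a1, Scn3a and Scn8a and the beta subunit genes Scn2b, Scn3b and Scn4b, and the name Scn2a had no row because the table lists that gene under its older symbol Scn2a1. The genes were chosen by name as a family, with earlier results of these data known. The labels give 3 control and 3 Lhx4-null retina samples on a mixed background of C57BL/6J and 129S6, and the methods describe each library as the retinas of 1 mouse. The labels name the first genotype only as control. For its electroretinograms the study used wild type mice or mice with a single loxP allele of Lhx4 as controls, and its Lhx4 null mice paired an allele knocked in with tdTomato with a loxP allele and Six3-Cre, a driver active in the developing retina. Animals of both sexes were used, and the retinal pigment epithelium was removed.

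A voltage-gated sodium channel is a large pore-forming subunit that opens on depolarization, lets sodium enter and closes again within milliseconds through an inactivation gate. Beta subunits are small membrane proteins with an immunoglobulin fold that change gating, bring the channel to the surface and hold it in place. In the retina these channels carry the action potentials of ganglion cells, the neurons whose axons form the optic nerve, and of many amacrine cells, and some cone bipolar cells have them too, whereas photoreceptors mostly signal without spikes. In rodent ganglion cells Scn2a channels fill the young axon and Scn8a channels take over at the axon initial segment and the nodes of Ranvier as myelin forms.

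The pore-forming genes are close copies, which bears on how short reads can be assigned to them. Scn3a, Scn2a1 and Scn1a lie together on chromosome 2, at chr2:65457118-65567627 (minus strand), chr2:65620771-65767447 (plus strand) and chr2:66270778-66440840 (minus strand) in GRCm38. Scn3a and Scn2a1 are 53.1 kb apart and point away from each other. Scn8a lies alone on chromosome 15, at chr15:100869858-101045938 (plus strand). The longest annotated coding sequences agreed at 82.8% of aligned bases between Scn1a and Scn2a1, at 83.8% between Scn2a1 and Scn3a and at 81.7% between Scn1a and Scn3a, but at 74.6% to 75.6% between Scn8a and the other 3, in the GENCODE M21 annotation. Of all windows of 50 coding bases, 14% in Scn3a, 11.3% in Scn2a1, 7.65% in Scn1a and 0.101% in Scn8a also occurred unchanged in a transcript of another sodium channel gene. For windows of 100 bases the shares were 4.86%, 2.28%, 1.704% and 0. The values of Scn1a, Scn2a1 and Scn3a may therefore be the less certain ones, since Cufflinks divides fragments that fit more than 1 gene. The paired reads of the study were longer than either window, and no window of read length was examined. The size of this uncertainty was thus not estimated. No window of 50 bases in the 3 beta subunit genes was shared.

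The beta subunit genes all lie on the plus strand of chromosome 9. Scn3b is at chr9:40269217-40291618, and Scn2b at chr9:45117782-45130070 and Scn4b at chr9:45138395-45154152 are neighbours, 8.32 kb apart. Their coding sequences agreed at 54.9% to 56.9% of aligned bases, far less than those of the pore-forming genes. Scn1a, Scn3a, Scn2b and Scn3b each overlap 1 annotated gene on the other strand. Whether strand was used is not given in the sources used here, so reads of those genes cannot be told apart from theirs. The gene opposite Scn2b, Gm10684, stood at 0.0182 FPKM in control 1 and was listed at 0 in the other 5 libraries, and the genes opposite the other 3 had no row in the table.

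FPKM, the deposited unit, counts fragments relative to transcript length and to all mapped fragments, so levels of different genes can be set side by side. FPKM summed to between 386567 and 429668 per library, and the table does not give the fragments behind a value. The 2 libraries numbered 3 stood apart from the rest on the first principal component, which held 50.9% of the variance. In both of these libraries all 10 progenitor and cell cycle genes were above, and all 10 rod genes below, the mean of replicates 1 and 2 in their group. The groups were compared on the log2(FPKM + 0.5) scale with limma, a linear model with a shared estimate of variance, over 13175 genes with a mean of at least 0.5 FPKM. The adjusted p is the Benjamini-Hochberg (BH) value over those genes, and a gene passed, or was called, under 0.05. A second fit with a replicate block also removed differences between replicate numbers. After removal of group means, control 1 correlated with null 1 (0.394) about as well as with null 2 (0.377). Numbers 1 and 2 are thus not shown to be pairs, and comparisons by number rest on the labels. The targeted gene does not check the labels. Lhx4 stood at 18.0, 18.1 and 19.3 FPKM across control libraries 1 to 3, against 28.2, 28.2 and 25.8 FPKM across the 3 null-labelled libraries, higher where it was to be inactivated (log2 difference 0.56, SE 0.0847, limma adjusted p = 0.336), and these gene-level values cannot show whether a deleted stretch of the transcript is missing. The libraries are therefore called null-labelled.

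Scn8a was the most abundant of the family in every library. It encodes the pore-forming subunit of mature axon initial segments and nodes. It stood at 17.7, 15.1 and 12.5 FPKM across control libraries 1 to 3, against 12.2, 16.6 and 11.03 FPKM across the 3 null-labelled libraries. Nulls 1 and 3 lay below the lowest control, null 2 lay inside the control range, and the groups overlapped. The means were 15.1 ± 2.60 (SD, n = 3) and 13.3 ± 2.96 FPKM (SD, n = 3), a ratio of 0.879. The log2(FPKM + 0.5) difference of null-labelled minus control was -0.19 (SE 0.181, 95% interval -0.61 to 0.24), so the test was not passed (limma adjusted p = 0.843). It was -0.069 without null 3, -0.071 without control 1, -0.31 without control 3 and -0.36 without null 2, so its size rests on single libraries.

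Scn3a, a pore-forming subunit best known from embryonic and newborn brain, and Scn2a1, that of young and unmyelinated axons, came next among the pore-forming genes. Scn3a was 4.89, 4.85 and 4.42 FPKM across control libraries 1 to 3, against 6.50, 6.11 and 4.84 FPKM across the 3 null-labelled libraries. Scn2a1 was 4.49, 3.74 and 3.01 FPKM across control libraries 1 to 3, against 6.00, 5.32 and 4.18 FPKM across the 3 null-labelled libraries. For both genes nulls 1 and 2 lay above every control, null 3 lay inside the control range, and each null-labelled library lay above the control of the same number. Scn3a had means of 4.72 ± 0.262 and 5.82 ± 0.869 FPKM (SD, n = 3 each), a ratio of 1.23 and a log2 difference of 0.27 (SE 0.136, 95% interval -0.050 to 0.58, limma adjusted p = 0.749). Scn2a1 had means of 3.75 ± 0.740 and 5.17 ± 0.919 FPKM (SD, n = 3 each), a ratio of 1.38 and a log2 difference of 0.42 (SE 0.180, 95% interval -0.0044 to 0.84, limma adjusted p = 0.725), the widest of the 6 members tested. Neither passed, also not with the replicate block (BH-adjusted p = 0.416 and 0.300).

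Scn1a, whose human counterpart is a main gene of inherited childhood epilepsy, was the lowest of the pore-forming members. It was 2.60, 1.90 and 2.56 FPKM across control libraries 1 to 3, against 2.80, 2.84 and 2.39 FPKM across the 3 null-labelled libraries. Null 3 lay inside the control range, and nulls 1 and 2 were above it by less than the control range is wide. The means were 2.36 ± 0.392 and 2.68 ± 0.247 FPKM (SD, n = 3 each), with a log2 difference of 0.16 (SE 0.155, 95% interval -0.20 to 0.52, limma adjusted p = 0.843), which was 0.041 without control 2, the lowest library. It was the only one of the 6 members tested that stood higher in control 3 than in the mean of controls 1 and 2.

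Among the beta subunits Scn3b held most of the transcript. Its protein sits beside the pore without a covalent bond. Scn3b was 9.44, 7.82 and 8.51 FPKM across control libraries 1 to 3, against 11.9, 10.2 and 10.4 FPKM across the 3 null-labelled libraries. All 3 null-labelled libraries lay above all 3 controls, an order that 7.88% of 13175 tested genes shared, while 5.53% had the reverse. The means were 8.59 ± 0.813 and 10.8 ± 0.924 FPKM (SD, n = 3 each), a ratio of 1.26, with a log2 difference of 0.32 (SE 0.113, 95% interval 0.054 to 0.58). Its unadjusted p of 0.0243 (limma) was the smallest of the members tested, and it did not pass (limma adjusted p = 0.689, 0.327 with the replicate block). An unadjusted p under 0.05 with a higher null-labelled mean was reached by 4.09% of tested genes, and in either direction by 6.81%.

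Scn2b, whose protein is joined to the pore-forming subunit by a disulfide bond, was 2.28, 2.23 and 1.21 FPKM across control libraries 1 to 3, against 2.00, 2.38 and 1.82 FPKM across the 3 null-labelled libraries. Control 3 stood apart below the other 5 libraries. The means were 1.91 ± 0.606 and 2.07 ± 0.283 FPKM (SD, n = 3 each). The log2 difference was 0.12 (SE 0.220, 95% interval -0.39 to 0.64, limma adjusted p = 0.928), and it turned to -0.11 without control 3, so its sign rests on that library.

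Scn4b, which is also disulfide-linked and supplies the tail that gives Purkinje cells their resurgent sodium current, was hardly seen. It was 0.0160 and 0.0154 FPKM in controls 1 and 2, listed at 0 in control 3, and 0.0245, 0.0160 and 0.0169 FPKM across the 3 null-labelled libraries. Its mean over the 6 libraries, 0.0148 FPKM, was under the filter of 0.5 FPKM, so it was not tested and no fold is given. Scn2b, its upstream neighbour on the same strand, had a mean of 1.99 FPKM.

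**Figure D1:**
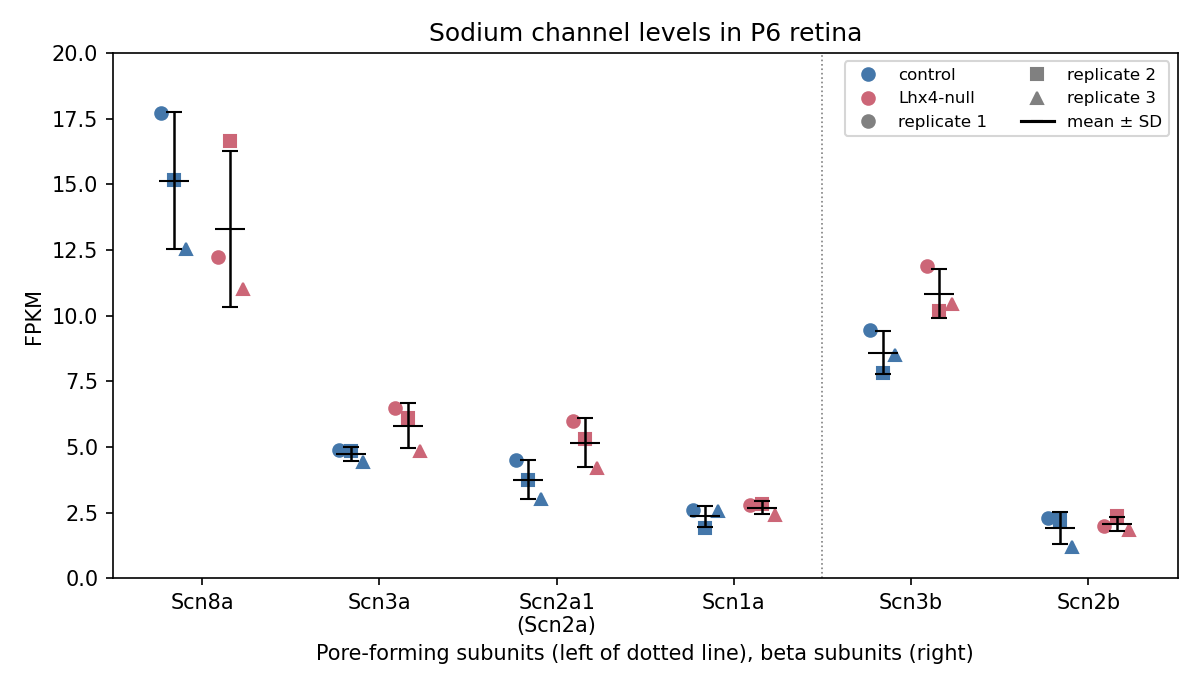
FPKM of 6 sodium channel genes (vertical axis) in each library, with controls in blue, null-labelled libraries in red, a marker shape per replicate number and bars for mean ± SD (n = 3 each). Scn8a spans 11.03 to 17.7 FPKM with the groups mixed, whereas every Scn3b value of the null-labelled libraries (10.2 to 11.9) is above every control (7.82 to 9.44).

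Ordered by control mean the levels ran Scn8a, Scn3b, Scn3a, Scn2a1, Scn1a, Scn2b and Scn4b. Among controls, the ranges of Scn8a and Scn3b did not overlap, nor did those of Scn3b and Scn3a, of Scn2a1 and Scn1a, or of Scn2b and Scn4b. Scn3a and Scn2a1 were neighbours whose control ranges overlapped, at 4.42 to 4.89 and 3.01 to 4.49 FPKM, although Scn3a was the higher of these genes in all 6 libraries. Scn1a and Scn2b also overlapped among controls, and Scn1a was the higher in 5 of 6 libraries. In the null-labelled libraries the ranges of Scn8a and Scn3b met as well, at 11.03 to 16.6 and 10.2 to 11.9 FPKM, with Scn8a the higher in each of them. By mean level Scn8a stood above 74.4% and Scn2b above 48.9% of the rows in the table.

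The shares that Scn8a, Scn2a1 and Scn3a held of the pore-forming transcripts stood apart between the groups, although their levels overlapped. Scn8a made up 59.7%, 59.1% and 55.6% of the summed FPKM of the 4 pore-forming members in controls 1 to 3 and 44.4%, 53.9% and 49.1% in nulls 1 to 3. Scn2a1 made up 15.1%, 14.6% and 13.4% in controls and 21.8%, 17.2% and 18.6% in null-labelled libraries, and Scn3a 16.5%, 18.9% and 19.6% against 23.6%, 19.8% and 21.6%. For these 3 shares the groups did not overlap, as was so for the levels of 13.4% of all tested genes. No such count was made for shares of other genes. The share of Scn1a did overlap, at 8.76%, 7.42% and 11.4% in controls and 10.2%, 9.18% and 10.7% in null-labelled libraries, and shares of 1 whole move against each other by construction. The summed level did overlap, at 22.5 to 29.7 FPKM in controls and 22.4 to 30.9 FPKM in null-labelled libraries.

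The same values can be given as the ratio of a pair of genes within a library, which no scaling of the library can change. Scn8a was 3.95, 4.05 and 4.16 times Scn2a1 in controls 1 to 3 and 2.04, 3.13 and 2.64 times in nulls 1 to 3. Scn8a was 3.62, 3.12 and 2.84 times Scn3a in controls and 1.88, 2.72 and 2.28 times in null-labelled libraries. Controls 1 to 3 held the first ratio within a narrow range, control 3 included, and each null-labelled library lay below it. Of 13174 other tested genes, 5.92% likewise had an Scn8a ratio lower in every null-labelled library than in any control. These ratios and shares were chosen after the values had been seen and carry no test.

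**Figure D2:**
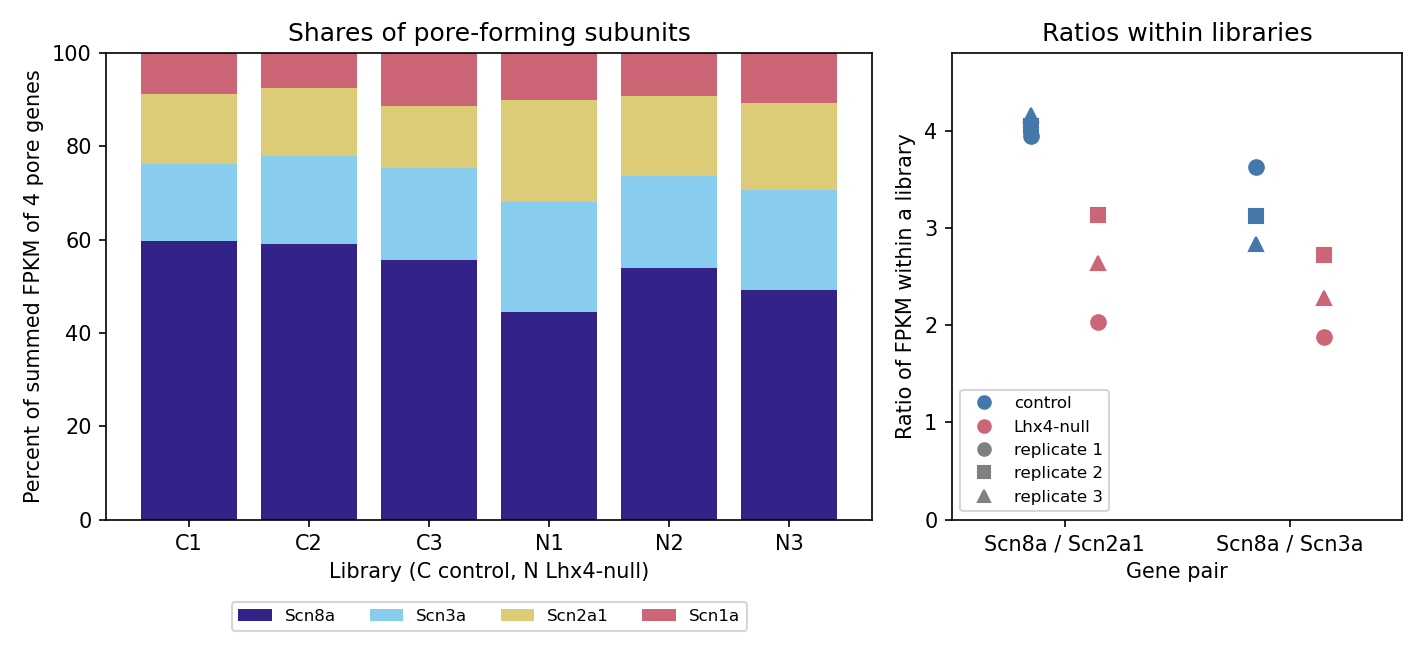
Left, the percent of the summed FPKM of 4 pore-forming genes held by each gene in each library, and right, the FPKM of Scn8a divided by that of Scn2a1 or Scn3a in the same library, controls in blue and null-labelled libraries in red. The Scn8a share is 55.6% to 59.7% in controls and 44.4% to 53.9% in null-labelled libraries, and the ratio to Scn2a1 is 3.95 to 4.16 against 2.04 to 3.13.

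Across the family, 5 of 6 tested members had a higher and 1 a lower null-labelled mean on the log2 scale, with a median difference of 0.21 against 0.0033 over all tested genes. None passed at a BH-adjusted p under 0.05 (limma), 1 had an unadjusted p under 0.05, and 1 had groups that did not overlap. Over all tested genes, 2 passed, 0.0152% of those tested, 13.4% had no overlap between the groups in either direction, and with the replicate block 12 genes passed, 0.0911%, none of them a sodium channel. The intervals still allow differences of some size. They reach a fold of 1.79 for Scn2a1, 1.498 for Scn3a and Scn3b, 1.44 for Scn1a and 1.56 for Scn2b, and go down to 0.655 for Scn8a. In bulk retina a lower number of cells of a type and less RNA in each cell cannot be told apart.

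The libraries numbered 3 had lower values of most sodium channel genes, 5 of the 6 members in control 3 and 6 of 6 in null 3, against 54.3% and 45.0% of all tested genes. On the log2 scale, relative to the mean of replicates 1 and 2, Scn8a stood at -0.37 in control 3 and -0.36 in null 3, Scn2a1 at -0.39 in both, and Scn3a at -0.13 and -0.35. Scn2b was at -0.69 in control 3 and -0.21 in null 3, Scn3b at -0.013 and -0.071, and Scn1a at 0.16 and -0.20. Over all tested genes the medians were -0.034 and 0.034. In the same libraries progenitor and cell cycle genes stood at medians of 1.21 and 0.90 and rod genes at -1.39 and -0.87, and the part of these shifts in the sodium channel values was not tested. With both libraries numbered 3 left out the difference was 0.42 for Scn2a1, 0.34 for Scn3a, 0.34 for Scn3b, 0.28 for Scn1a and -0.19 for Scn8a, none of which passed (limma adjusted p = 0.377, 0.380, 0.424, 0.563 and 0.670), and -0.038 for Scn2b.

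**Figure D3:**
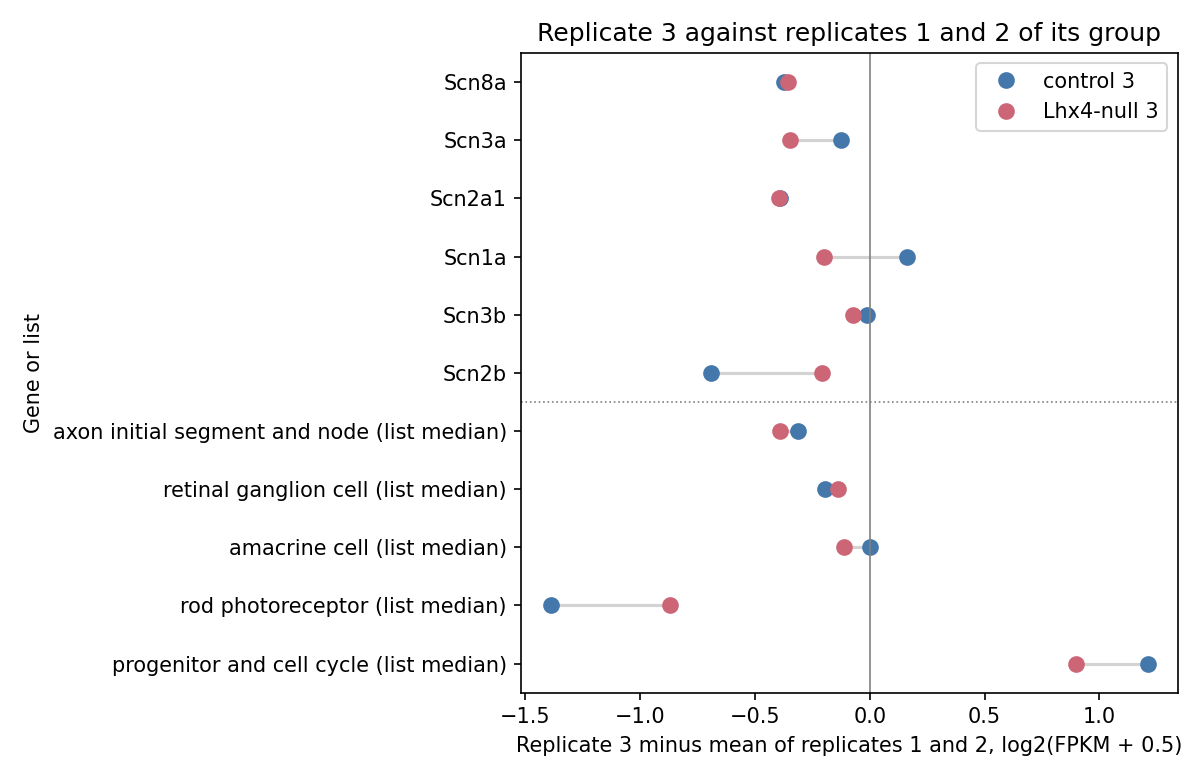
Difference on the log2(FPKM + 0.5) scale between replicate 3 and the mean of replicates 1 and 2 of its group (horizontal axis) for 6 sodium channel genes and, under the dotted line, the median of 5 gene lists, control in blue and null-labelled in red. Scn8a and Scn2a1 lie between -0.36 and -0.39 in both groups, while the progenitor list lies at 1.21 and 0.90.

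Other genes of the family were measured beside the members. Nalcn, a sodium leak channel that sets resting potential (chr14:123276634-123627144), was 4.27, 3.90 and 2.58 FPKM in controls and 5.57, 5.30 and 3.79 FPKM in null-labelled libraries, with a log2 difference of 0.41 (SE 0.210, limma adjusted p = 0.749). As with Scn2a1, replicate 1 was the highest and replicate 3 the lowest library of each group. Scn9a, known from pain-sensing neurons and next to Scn1a in the chromosome 2 cluster at chr2:66480080-66634962, was 1.05, 1.12 and 1.11 FPKM in controls and 1.41, 1.32 and 1.35 FPKM in null-labelled libraries. All its null-labelled libraries lay above all controls, which held for 7.88% of all tested genes. The log2 difference was 0.22 (SE 0.140, limma unadjusted p = 0.153, adjusted p = 0.772). Scn9a shares coding windows with Scn1a, Scn2a1 and Scn3a and overlaps annotated genes on both strands.

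Scn4a, the channel of skeletal muscle, stood at 0.556 to 0.810 FPKM. Scn7a, a glial sodium-sensing channel, was at 0.0881 to 0.157 FPKM. Scn10a and Scn11a, of sensory neurons, were at or under 0.0179 and 0.0720 FPKM. Of the 8 genes of this list, 4 passed the filter, 3 of them with a higher null-labelled mean, and 0 were called (limma, 0 at an unadjusted p under 0.05, 0 with the replicate block).

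Genes whose products hold sodium channels at the initial segment and node held the smallest p-values among the partner lists. This list was also the longest, with 13 tested genes against 4, 4 and 6 in the others. Cntn1, contactin, a surface adhesion protein that binds sodium channels, was 21.1, 20.8 and 16.8 FPKM across control libraries 1 to 3, against 31.2, 26.2 and 25.7 FPKM across the 3 null-labelled libraries. Nrcam, an adhesion molecule of the same sites, was 10.5, 10.5 and 9.40 FPKM in controls and 15.7, 13.9 and 13.0 FPKM in null-labelled libraries. For both genes the lowest null-labelled value exceeded the highest control, as for 7.88% of all tested genes. The log2 differences were 0.49 (SE 0.124) and 0.47 (SE 0.107), and neither passed (limma adjusted p = 0.661 for each, 0.154 and 0.193 with the replicate block).

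Cntnap2, which gathers potassium channels beside the node, was 26.6, 21.6 and 21.9 FPKM in controls and 29.9, 29.8 and 25.6 FPKM in null-labelled libraries, with an overlap through null 3 and control 1 (log2 0.28, limma adjusted p = 0.715). Sptbn4, a spectrin of initial segments and nodes, was 4.42, 3.63 and 3.06 FPKM in controls and 3.23, 3.43 and 2.49 FPKM in the null-labelled ones (log2 difference -0.24, limma adjusted p = 0.805). Each null-labelled value of Sptbn4 was below the control of the same number, as for Scn8a in replicates 1 and 3. Of the 13 genes in this list, 8 had higher and 5 lower null-labelled means, with a median difference of 0.031. In limma 0 were called, also 0 with the replicate block, and 3 had an unadjusted p under 0.05, against 6.81% of all tested genes. All 13 stood lower in the libraries numbered 3, in both groups.

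The intracellular fibroblast growth factor homologues, which bind the tail of the pore-forming subunit and set its inactivation, had similar means in both groups. Fgf11 had means of 17.0 ± 1.49 and 15.4 ± 1.08 FPKM (SD, n = 3 each), Fgf12 9.87 ± 0.954 and 10.8 ± 0.718 FPKM, Fgf13 13.5 ± 1.97 and 12.5 ± 1.81 FPKM, and Fgf14 5.48 ± 0.490 and 6.10 ± 0.513 FPKM. Their values overlapped between the groups for all 4 genes, with 2 log2 differences above and 2 below 0 and 0 calls (limma, 0 at an unadjusted p under 0.05).

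The sodium pump, which rebuilds the gradient the channels use, summed to 545 to 896 FPKM in controls and 618 to 849 FPKM in null-labelled libraries over 6 genes. Atp1b1, a beta subunit of the pump, had means of 56.4 ± 9.36 and 62.0 ± 3.62 FPKM, and Atp1b3 25.7 ± 2.68 and 27.8 ± 0.658 FPKM (SD, n = 3 each). All 6 pump genes had higher null-labelled means and 0 were called (limma, 0 at an unadjusted p under 0.05), with a median difference of 0.10.

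**Figure D4:**
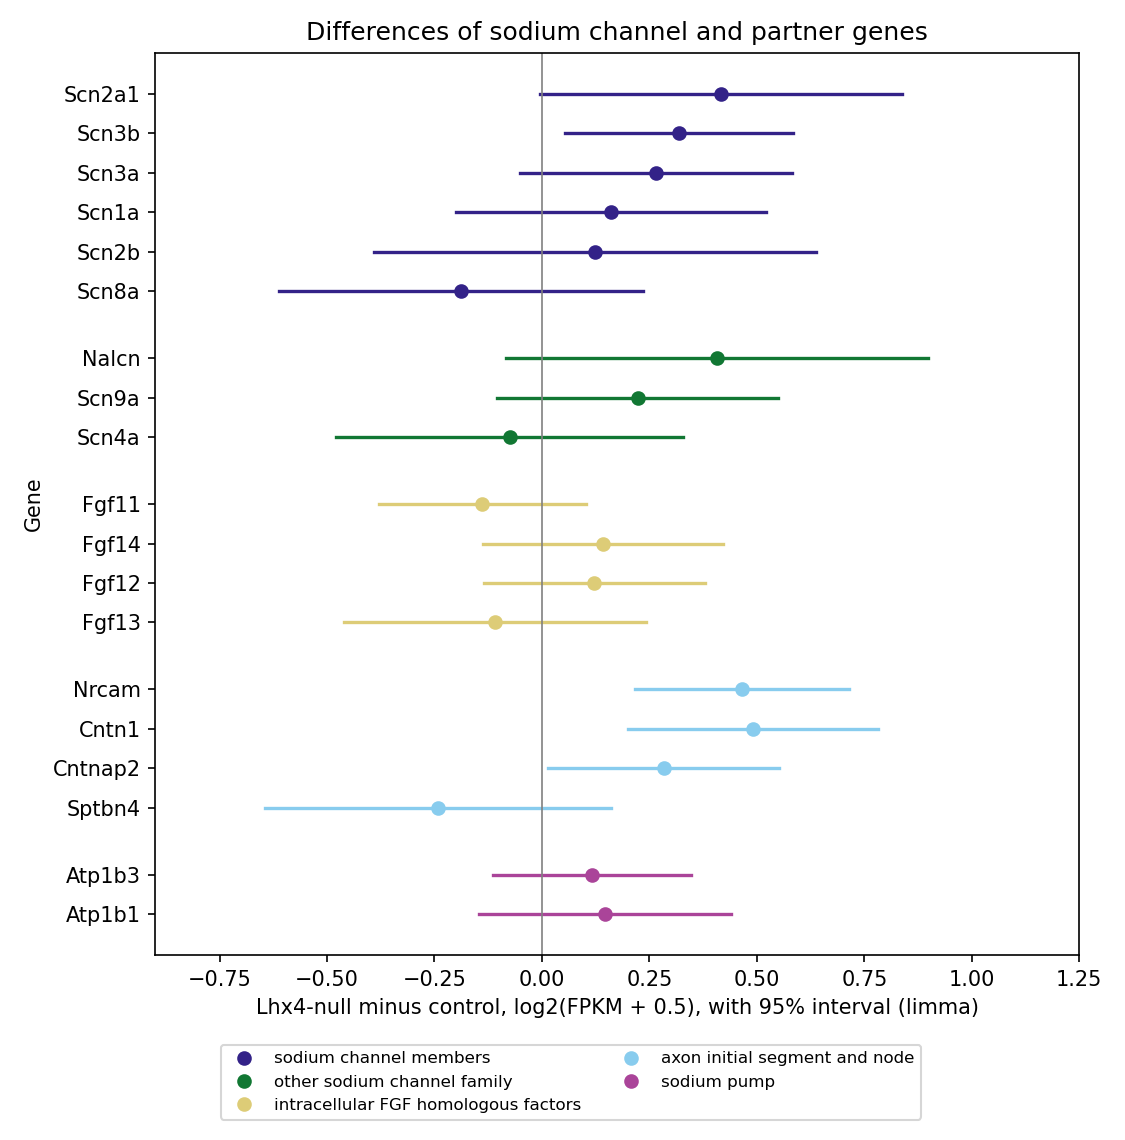
Log2(FPKM + 0.5) difference of null-labelled minus control (horizontal axis, dots) with the 95% interval from limma (lines) for 6 sodium channel genes and for the genes of the partner lists named in the text. Scn3b, Nrcam, Cntn1 and Cntnap2 have intervals above 0 before adjustment for 13175 tests, and none has a BH-adjusted p under 0.05.

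The markers of the cells that use sodium channels were measured beside them. Of 12 ganglion cell markers 10 had higher null-labelled means, with a median of 0.10 and a summed level of 252 to 319 FPKM in controls and 290.1 to 314 FPKM in null-labelled libraries. Of 11 amacrine markers 8 were higher, with a median of 0.082 and sums of 335 to 389 and 367 to 402 FPKM. All 5 tested horizontal cell markers were higher, with a median of 0.28 and sums of 24.5 to 34.2 and 33.9 to 46.1 FPKM. Of 9 tested cone bipolar markers 7 were lower, with a median of -0.56 and sums of 24.7 to 79.5 and 23.3 to 46.0 FPKM, in a list with genes the study named from these samples. None of these markers passed in the fit without the block. In the order given, 1, 0, 2 and 3 had an unadjusted p under 0.05 (limma), against 6.81% of all tested genes. With the replicate block 1 cone bipolar marker passed, against 0.0911% of all tested genes. All null-labelled libraries lay above all controls for 3, 1, 2 and 0 markers, against 7.88% of all tested genes. They lay below all controls for 0, 0, 0 and 3, against 5.53%. No marker of these lists was at 0 in every library. The part of any of these cells in the sodium channel values was not tested.

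Rod and ON bipolar markers were higher for 7 of 10 (median 0.27), rod markers lower for 9 of 10 (median -0.22) and progenitor markers higher for 5 of 10 (median 0.00081). Muller glia markers were higher for 6 of 6 tested (median 0.12), and astrocyte and oligodendrocyte markers for 4 of 6 tested (median 0.23), with sums of 29.3 to 30.5 FPKM in controls and 33.6 to 38.4 FPKM in null-labelled libraries. None of these passed (limma). An unadjusted p under 0.05 was reached by 1, among astrocyte and oligodendrocyte markers, against 6.81% of all tested genes. Rod markers summed to 1665 to 3449 FPKM in controls and 1808 to 2661 FPKM in null-labelled libraries, and these genes mark the retina.

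The family did not share a single pattern over the 6 libraries. Likeness was measured as the root mean square (RMS) difference between log2(FPKM + 0.5) profiles, each centred on its own mean. Nearest to Scn2a1 were Pcdh1 (RMS 0.0304), a protocadherin, Sv2c (0.0468), a synaptic vesicle protein, and Csmd3 (0.0589), against a median of 0.326 over 13174 genes. Among the 6 tested members the nearest to it was Scn3a (0.135), at place 187 of 13174. Nearest to Scn3a were Lig3 (RMS 0.0352), Kidins220 (0.0388) and Kif26b (0.0396), and nearest to Scn3b were Gabbr2 (0.0420), a GABA-B receptor subunit, Gpr37 (0.0451) and Lrrc8d (0.0462). Scn1a was most like B4galt3 (RMS 0.0439), Slc39a6 (0.0472) and Golim4 (0.0502). The nearest tested member was Scn3b for Scn1a (0.130, place 470) and for Scn3a (0.131, place 735), and Scn1a for Scn3b (place 507). The medians over all genes were 0.233, 0.243 and 0.247 for Scn1a, Scn3a and Scn3b.

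Among the 6 tested members Scn8a and Scn2b were each other's nearest, yet only at an RMS of 0.213, at places 2682 and 2735 of 13174. Nearest to Scn8a were Dlk2 (RMS 0.0370), Zfp612 (0.0373) and Itga10 (0.0538), and nearest to Scn2b were Fbxo36 (0.0475), Rassf3 (0.0487) and Xpnpep3 (0.0569). With 6 libraries, of which those numbered 3 stand apart, such likeness is a description of these samples.

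A start site of the most abundant and that of the least abundant member are rich in the CG dinucleotide, which is printed in capitals in the RefSeq promoter windows on GRCm38.p6 that follow, each from 250 bases before to 50 bases after an annotated start. The table held 7 windows for 5 of the 7 genes. The Scn8a window is the upstream of 2 at that gene, at chr15:100870395-100870694 (plus strand), the Scn4b window lies at chr9:45138374-45138673 (plus strand), and the Scn2a1 window, the downstream of 2 at that gene, at chr2:65668436-65668735 (plus strand).
Scn8a: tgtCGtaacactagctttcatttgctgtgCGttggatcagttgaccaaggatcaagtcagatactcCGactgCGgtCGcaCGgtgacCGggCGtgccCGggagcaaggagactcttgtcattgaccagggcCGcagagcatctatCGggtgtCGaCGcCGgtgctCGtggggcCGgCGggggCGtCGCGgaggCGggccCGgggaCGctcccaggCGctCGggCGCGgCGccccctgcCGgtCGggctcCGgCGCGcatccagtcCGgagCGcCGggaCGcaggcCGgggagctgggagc
Scn4b: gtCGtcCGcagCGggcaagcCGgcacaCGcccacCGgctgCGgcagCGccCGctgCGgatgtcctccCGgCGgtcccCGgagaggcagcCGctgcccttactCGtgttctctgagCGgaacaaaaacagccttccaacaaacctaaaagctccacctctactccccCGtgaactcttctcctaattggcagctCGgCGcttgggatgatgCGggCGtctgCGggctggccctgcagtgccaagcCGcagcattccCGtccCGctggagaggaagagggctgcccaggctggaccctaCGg
Scn2a1: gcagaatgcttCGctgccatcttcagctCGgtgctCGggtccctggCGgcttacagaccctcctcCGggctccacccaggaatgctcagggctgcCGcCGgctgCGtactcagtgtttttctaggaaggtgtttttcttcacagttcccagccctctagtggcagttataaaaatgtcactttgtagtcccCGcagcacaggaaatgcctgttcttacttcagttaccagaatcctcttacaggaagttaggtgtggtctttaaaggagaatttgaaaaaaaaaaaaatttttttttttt
Scn8a held 38 CG dinucleotides at 70.0% G and C here and 12 at 53.3% in its downstream window, and Scn4b 26 at 66.3%, against medians of 7 and 52.7% over 32851 windows of all genes. Scn2a1 held 9 at 47.7% here and 3 at 33.0% in its upstream window, Scn1a 5 at 47.3% and Scn2b 2 at 38.3%. Scn4b with 26 CG dinucleotides was thus at a mean of 0.0148 FPKM and Scn2b with 2 at 1.99 FPKM. The letters TAATTA, a core bound by LIM-homeodomain proteins, were in none of the 7 windows on either strand and in 5.29% of all windows. The letters TATAAA were in 1 of the 7, the downstream Scn2a1 window, and in 13.6% of all windows.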

How the data were processed

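Retinas of 3 control and 3 Lhx4-null mice at P6 were sequenced as TruSeq libraries with paired ends. Gene-level FPKM was deposited by the authors. Their processing notes name TopHat2, Cufflinks and GRCm38. Not given in the sources used here were program versions, annotation and strand setting. This unit keeps no fragment counts. The most common ratio between low values (0.001 to 0.2 FPKM, tolerance 0.003 on the natural log scale) of any pair of libraries held 0.946% to 7.83% of low genes, so whole fragments could not be recovered, no count test was run, and precision rests on the spread between 3 animals.

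Of 21995 rows, 13175 whose mean reached 0.5 FPKM were fitted as log2(FPKM + 0.5) on genotype in R 4.3.3 (limma 3.58.1, variance trend on). p-values were two-sided and adjusted over all tested rows by Benjamini-Hochberg (BH), and genes were called under 0.05. The pseudocount shrinks the folds of low genes. For a repeated name the row with the highest mean was used. The script was tested on simulated data with independent noise and no shift of the libraries numbered 3. The planted differences were larger than those of the members, so the simulation does not show how the fit handles these data. After removal of group means, same-numbered libraries correlated at 0.394, 0.260 and 0.675 for numbers 1 to 3, which are the numbers in the labels. Control 1 with null 2 (0.377) and control 2 with null 1 (0.269) correlated about as well. The correlations thus set number 3 apart but do not pair numbers 1 and 2. In the fit with the replicate block the pairs were taken from the numbers in the labels.

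Genes were named by rule: all members, Lhx4, per partner list those called and up to 4 with the smallest p, and the 3 genes nearest each member in pattern. Some genes and sequences that this rule or the lists would give are not reported here. Family genes under the filter, and the ratios and shares, were added after values were seen. The members and lists were chosen with earlier results of these data known. Lists came from gene families and textbook markers. The alternatives tried were a pseudocount of 0.1 or 1, no low-value filter, a filter at 2 FPKM, scaling by the 75th percentile or by the total, quantile normalization, array weights, no variance trend, the replicate block, each library left out, and both libraries numbered 3 left out. Positions and coding sequences came from GENCODE M21 and promoters from RefSeq, both on GRCm38.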

Additional observations from a re-analysis of the deposited data

How the results depend on the processing

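No sodium channel gene and no gene of the partner lists was called under any of the 17 alternatives. The sign of the difference held in every alternative for Scn1a (0.041 to 0.28), Scn2a1 (0.29 to 0.55), Scn3a (0.19 to 0.38), Scn3b (0.25 to 0.38) and Scn8a (-0.36 to -0.069), and the extremes came mostly from leaving out a library. Scn2b reversed to -0.11 without control 3 and to -0.038 with both libraries numbered 3 left out, and it was under the stricter filter of 2 FPKM. Over all tested genes, 2 passed, and 12 did with the replicate block and 11 with both libraries numbered 3 left out. Leaving out single libraries gave 0 to 5 genes, with 0 without null 2 (825 at an unadjusted p under 0.05), 1 without control 2 and 5 without control 3. The cause was not tested. The replicate block changed no call of a sodium channel or partner gene. The smallest BH-adjusted p of a member in any alternative was 0.296, for Scn3b. FPKM does not give the fragments behind a value, and how far counting error limits the low values, Scn4b above all, was not estimated here.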
